A study of Mus musculus with 2 samples.

Results

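The regulatory domain of Shh, on chromosome 5, was described as a map of CTCF binding in mouse embryonic stem cells. Its members were the 13 peaks of the authors' conservative list with a summit between 28.3 and 29.5 Mb on the mm10 build, out of 43393 conservative peaks in all. The window of 1.2 Mb holds the 5 genes Shh, Rnf32, Lmbr1, Nom1 and Mnx1, together with Rbm33 on the far side of Shh. Within that list the peaks were taken by position alone, though the region was picked with earlier results of these data known. Both libraries of the series are CTCF ChIP-seq from E14TG2a.4, a male embryonic stem cell line of strain 129/Ola derived from an embryo of day 3.5. The libraries are numbered biological replicates 1 and 2, form 1 group without treatment or a second genotype, and come from separate biosamples of the line, so values were compared between the replicates and between stretches of the genome. Read depth is unknown, since the lists hold no counts. With 2 libraries of a single group there is no test between groups, and no p-value is given.

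Shh encodes a secreted signalling protein that patterns the limb, the neural tube and many other organs. In the posterior limb bud its transcription is driven by a distant enhancer known as the ZRS, which lies in an intron of Lmbr1, a gene for a membrane protein, far from Shh itself. CTCF is a zinc-finger protein that stops the cohesin complex as it extrudes chromatin loops, and loops tend to form between CTCF motifs that point towards each other. CTCF sites on the Shh side and inside Lmbr1 are known to lie at the ends of the chromatin domain that holds Shh and its enhancers. The cells measured here are not limb cells, and neither transcription nor chromatin contacts were measured.

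The CTCF motif was located in the sequence of these peaks, since the strand of a motif gives the direction in which CTCF sits on the chromosome. Sequence was at hand for the mm9 build, in which the same genes, Rbm33 to Mnx1, span 28643661 to 29805059 and hold 10 peaks of the authors' pooled mm9 list. The motif was refined from the 5000 mm9 peaks of highest fold enrichment on the other chromosomes, and its most frequent bases read GCCACCAGGGGGCGCTAGA. The motifs of the sites nearest to Shh, those inside Lmbr1 with the highest scores or the highest binding, and the site beyond the start of Lmbr1 follow with 10 bases either side. Each reads 5′ to 3′ on the strand that carries the motif, and capitals mark the 19 bases of the motif.
Shh, side of Rbm33 (chr5:28777900-28777938, plus strand, 22.7 bits): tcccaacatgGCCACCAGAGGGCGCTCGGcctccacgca
Shh, side of Lmbr1, first motif (chr5:28796473-28796511, minus strand, 15.9 bits): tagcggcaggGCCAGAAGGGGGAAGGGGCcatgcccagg
Shh, side of Lmbr1, second motif (chr5:28796495-28796533, plus strand, 14.5 bits): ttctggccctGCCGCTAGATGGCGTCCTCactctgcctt
Lmbr1 intron 9, first motif (chr5:29601465-29601503, minus strand, 20.0 bits): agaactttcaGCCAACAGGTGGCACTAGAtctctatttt
Lmbr1 intron 9, second motif (chr5:29602078-29602116, plus strand, 19.3 bits): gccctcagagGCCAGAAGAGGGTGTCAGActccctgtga
Lmbr1 intron 5 (chr5:29619921-29619959, minus strand, 16.1 bits): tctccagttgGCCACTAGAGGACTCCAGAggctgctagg
Lmbr1 intron 4 (chr5:29662562-29662600, minus strand, 21.6 bits): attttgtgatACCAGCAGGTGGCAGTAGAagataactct
Beyond the start of Lmbr1 (chr5:29716092-29716130, plus strand, 16.4 bits): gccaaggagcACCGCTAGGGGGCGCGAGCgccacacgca

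The 13 mm10 peaks fell into a group of 4 around Shh and Rbm33, a group of 8 in and beyond Lmbr1, and a single weak peak in the long stretch between them. They are numbered 1 to 13 in the order of the chromosome, from Rbm33 to Nom1. The signal per peak is that of the authors' caller on the pooled data, whose scale is not stated. It ranged from 11.9 to 343.9, a 29.0-fold spread, with a median of 83.4 in the window against 77.2 in the rest of the autosomes and X. Of the 13, 7 lay above the median of the whole set (77.2) and 6 below it. For each replicate, the relative signal is the signal of the entry within 100 bp of the summit, divided by that replicate's median over all conservative peaks matched in both replicates.

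**Figure D1:**
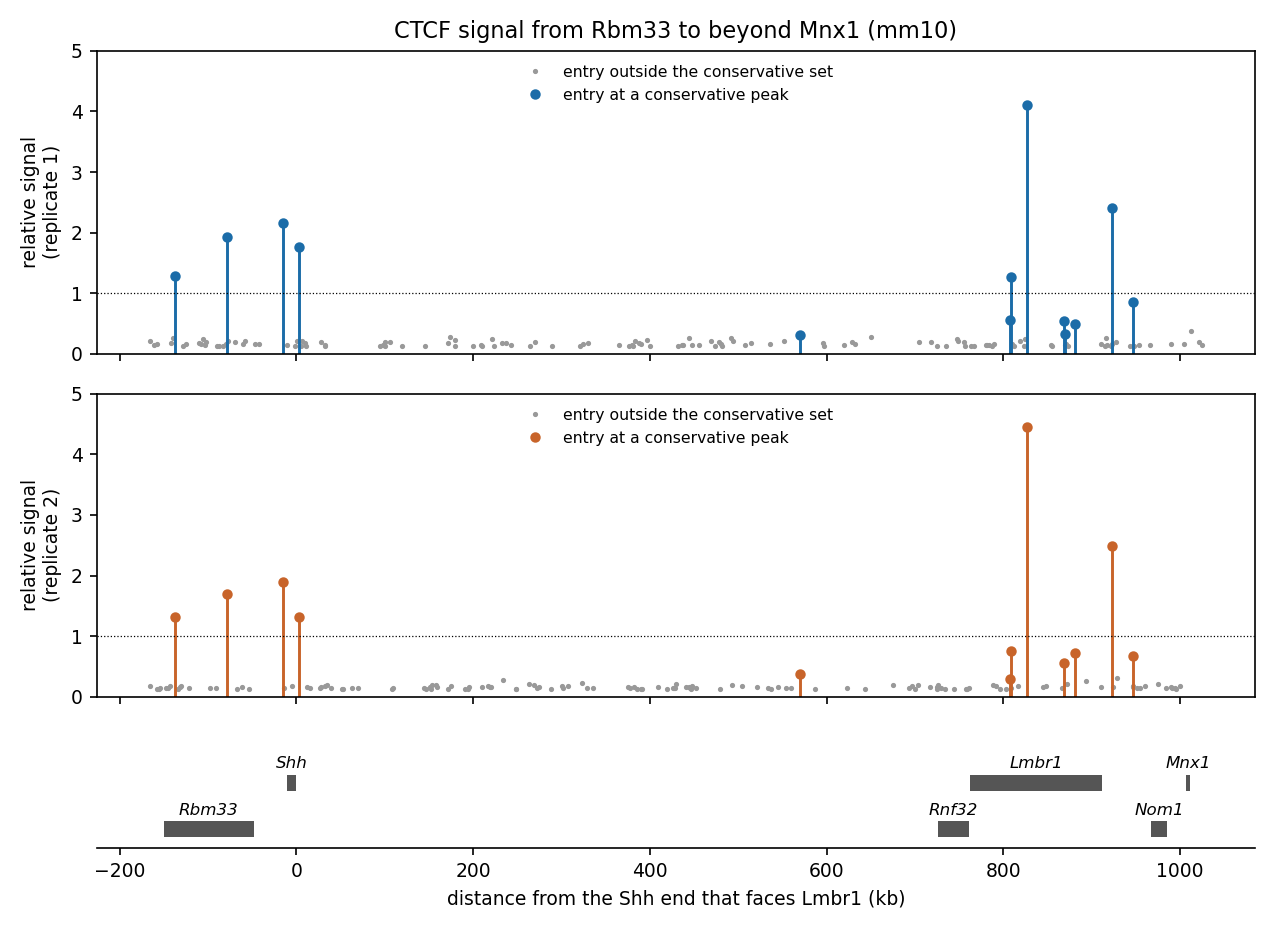
Relative signal (1 is the median conservative peak, dotted) along the window in replicate 1 and replicate 2, against the distance in kb from the end of Shh that faces Lmbr1; coloured stems are entries within 100 bp of a conservative peak, grey dots all other entries of the same list, and bars below are genes. Both replicates show 4 stems of at least 1.28 around Shh and Rbm33, a single stem of 0.310 and 0.381 between Shh and Rnf32, and the highest stem, 4.10 and 4.45, inside Lmbr1.

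Shh itself lay between a pair of CTCF sites, with no conservative peak inside the gene. Peak 3 (28451266 to 28451487) had its summit 5459 bp from Shh on the side of Rbm33, where Shh transcription ends, since the gene lies on the minus strand. Its relative signal was 2.15 in replicate 1 and 1.90 in replicate 2, or 2.03 ± 0.181 (SD, n = 2), and its pooled signal of 161.2 put it at rank 5034 of the 43393. Peak 4 (28469850 to 28470070) lay 2852 bp beyond the other end of Shh, where transcription starts, inside the long noncoding RNA gene 9530036O11Rik. Its relative signal was 1.77 in replicate 1 and 1.32 in replicate 2, or 1.54 ± 0.318, and its pooled signal of 127.0 put it at rank 10408. The summits of the pair were 18572 bp apart. Both lay above the median peak in both replicates.

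In mm9 the motifs of this pair differed in strand. The peak on the side of Rbm33 (28777138 to 28778417) held the motif of highest score in any of the 10 peaks, 22.7 bits, on the plus strand, which points across Shh towards Lmbr1. The peak at the start of Shh (28795754 to 28796918) held a pair of motifs that begin 22 bp apart on opposite strands, the better of them on the minus strand. Their fold enrichments, on the authors' scale, were 25.4 in replicate 1 and 25.1 in replicate 2 for the first peak, and 19.8 and 22.3 for the second.

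Rbm33, which encodes an RNA-binding protein, held peaks 1 and 2 inside the gene (28329549 to 28329684 and 28388316 to 28388507). For peak 1 the relative signal was 1.28 in replicate 1 and 1.32 in replicate 2. Peak 2 had 1.92 and 1.70. These 2 sites were thus also above the median peak in both libraries. In mm9 both lay in introns of Rbm33, and both motifs were on the minus strand, pointing away from Shh, with 14.9 and 19.7 bits.

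From Shh to Rnf32, which encodes a RING finger protein, 725.6 kb of chromosome held only peak 4 beside Shh and a single weak peak. That is 2.76 conservative peaks per Mb, against 23.2 per Mb in the remainder of the window, 22.8 in the rest of chromosome 5 and 16.9 in the rest of the autosomes and X. RefSeq lists noncoding RNA genes and pseudogenes in this stretch, and no protein-coding gene. Over the full window the density was 10.8 per Mb. Among adjoining tiles of 1.2 Mb, the median count was 19 on chromosome 5 and 16 over the autosomes and X, and 37.4% of the tiles of chromosome 5 held fewer than 13 peaks. A count as low as that of the full window is therefore common on the chromosome. Tiles of the length from Shh to Rnf32 were not counted, so this does not bear on the stretch itself.

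The stretches between Sox9 and Kcnj2 and between Epha4 and Pax3 held more peaks for their length than that from Shh to Rnf32. Between Sox9 and Kcnj2 on chromosome 11, 1705 kb held 17 conservative peaks, or 9.97 per Mb, with a longest peak-free interval of 446.6 kb. Between Epha4 and Pax3 on chromosome 1, 586.2 kb held 11 peaks, or 18.8 per Mb, with at most 125.5 kb between neighbours or the nearer gene. RefSeq lists 1 protein-coding gene, Gm11677, between Sox9 and Kcnj2. The stretch from Shh to Rnf32 ends before the peaks in Lmbr1, and the full Shh window, which includes them, held 10.8 per Mb. All these stretches give counts only, and the differences were not tested.

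The single peak inside the stretch was weak and its position differed between the libraries. Peak 5 (29036639 to 29036954) lay 569696 bp from Shh and 155948 bp from Rnf32, between genes, with a pooled signal of 19.5 and rank 41535. Its relative signal was 0.310 in replicate 1 and 0.381 in replicate 2, or 0.346 ± 0.0502 (SD, n = 2). The nearest entry of replicate 1 lay 85 bp from its summit and that of replicate 2 lay 95 bp from it, on the other side. No peak of the mm9 lists lay there: from the peak at the start of Shh to the first peak inside Lmbr1, the pooled mm9 list was empty for 804.2 kb.

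The peak-free intervals on either side of peak 5 were long for this chromosome. Summits of peaks 4 and 5 were 566.8 kb apart, a distance exceeded by 0.948% of the 3376 neighbour distances of chromosome 5 and by 1.21% of all 43324. Peaks 5 and 6 were 238.2 kb apart, exceeded by 2.52% on chromosome 5. The other 10 distances in the window ran from 200 bp to 62976 bp, and the median of all 12 was 32.5 kb against 15.7 kb on chromosome 5. In mm9 the interval of 804.2 kb, edge to edge, ranked 300 of 39329.

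**Figure D2:**
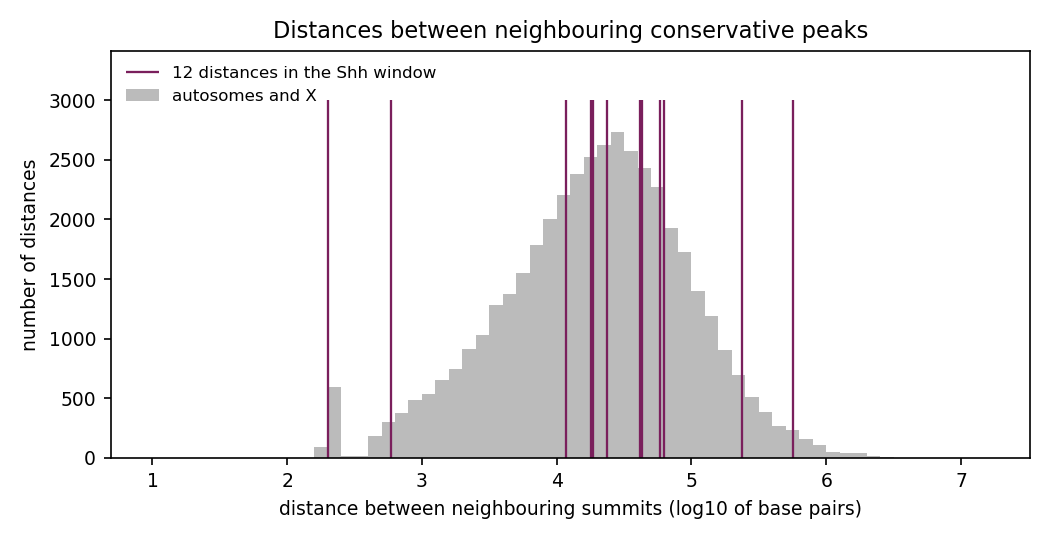
Number of neighbour distances between conservative summits on the autosomes and X (grey bars) by their length, as log10 of base pairs, with the 12 distances of the Shh window as vertical lines. The line farthest right is the interval of 566.8 kb beyond Shh, the next is that of 238.2 kb, and the line farthest left is a pair of summits 200 bp apart inside Lmbr1.

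The stretch was not without entries in the replicates' full lists, which hold 300000 entries each and include background. Between Shh and Rnf32, replicate 1 listed 70 entries and replicate 2 listed 83, or 96.5 and 114.4 per Mb, against 117.0 per Mb in each list over the autosomes and X. Outside the conservative set, 68 entries of replicate 1 and 81 of replicate 2 remained, of which 2 in each had an entry of the other replicate within 100 bp, or 2.94% and 2.47%. Over all such entries of the lists the share was 5.44% in either direction. The highest of them in the stretch had a relative signal of 0.284 in replicate 1 (28641262 to 28641577) and 0.280 in replicate 2 (28700720 to 28701035). Neither of these was found in the other replicate. The median signal of the entries outside the conservative set was 6.64 in replicate 1 and 5.88 in replicate 2, against 6.46 and 5.83 over the autosomes and X. Most entries were unshared both in the stretch and over the whole lists.

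Sequences that match the CTCF motif were present between Shh and Rnf32. In mm9, 33 sites of at least 13.1 bits lay in that stretch, or 45.3 per Mb, against 97.6 per Mb in chromosome 5 outside the span from Rbm33 to Mnx1. Of the 33, only the 2 in the peak at the start of Shh lay inside a pooled peak, or 6.06%, against 21.1% of the 14300 sites of the rest of the chromosome. Of sites of at least 18 bits, 6 lay in the stretch and 0 of them inside a peak, against 32.3% of 5761 elsewhere on the chromosome. The highest of them scored 21.6 bits. The pooled mm9 list has no other peak in the stretch than that at the start of Shh. The low shares of sites inside peaks therefore restate the low peak count and are not a separate result. A motif match is a description of the sequence, and whether reads can be placed at each of these sites was not tested.

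Lmbr1 held 6 conservative peaks within 148.6 kb, or 40.4 per Mb, and the strongest of the window. Peak 8 (29293268 to 29293552) had a pooled signal of 343.9 and rank 43 of the 43393. Its relative signal was 4.10 in replicate 1 and 4.45 in replicate 2, or 4.27 ± 0.246 (SD, n = 2), with ranks 66 and 40 in the replicates' own lists. Every other peak of the window was at or below 2.50 in both libraries. It lay 826.3 kb from Shh.

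The mm9 lists place the strongest site in intron 5 of Lmbr1, the intron that is known to hold the ZRS. The pooled mm9 peak (29619448 to 29620487) reached into exon 6, and its motif began 442 bp from that exon, at the end of the intron nearest to Shh, the intron being 30.9 kb long. Its distance from Shh, 826.3 kb, was that of peak 8 in mm10. The fold enrichment was 42.5 in replicate 1 and 44.3 in replicate 2, at ranks 60 and 74 of those lists. The motif, on the minus strand, scored 16.1 bits. This peak had the highest fold enrichment of the 10, and 5 of the others had a best motif of higher score.

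On the other side of the ZRS intron, intron 4 of Lmbr1 held a far weaker mm9 peak (29662163 to 29663305). Its fold enrichment was 6.34 in replicate 1 and 7.71 in replicate 2, while its minus-strand motif scored 21.6 bits. At the matching distance from Shh, the mm10 list held peaks 9 and 10 (29336015 to 29336330 and 29336215 to 29336530), whose summits were 200 bp apart and whose intervals overlap. For peak 9 the relative signal was 0.550 in replicate 1 and 0.560 in replicate 2. Peak 10, the weakest of the window with a pooled signal of 11.9 and rank 42843, had 0.329 in replicate 1 and no entry of replicate 2 within 100 bp. The entry of replicate 2 nearest to peak 10, 268 bp away, was the one matched to peak 9.

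The peaks nearest to Rnf32 within Lmbr1 differed between the replicates more than the others. Peaks 6 and 7 (29274807 to 29275122 and 29275532 to 29275632) were 586 bp apart. For peak 6 the relative signal was 0.563 in replicate 1 and 0.288 in replicate 2. Peak 7 had 1.27 in replicate 1 and 0.750 in replicate 2, or 1.01 ± 0.367. Both were higher in replicate 1, by 1.96-fold and 1.69-fold. In mm9 a single peak in intron 9 (29601072 to 29602548) covered this distance from Shh with fold enrichments of 13.2 in replicate 1 and 12.9 in replicate 2. It held a pair of motifs of similar score that begin 613 bp apart on opposite strands. At the distances from Shh of these motifs, 807.8 kb and 808.4 kb, peaks 6 and 7 had their summits in mm10. The mm9 fold enrichment covers both sites in a single broad peak and is on another scale, so it cannot check the difference seen on mm10.

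The last peak inside Lmbr1, peak 11 (29348004 to 29348319), was weak, at a relative signal of 0.501 in the first replicate and 0.718 in the second, or 0.610 ± 0.153. In mm9 the corresponding distance fell in intron 3, with fold enrichments of 6.86 and 6.28 and a motif of 14.8 bits on the minus strand.

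Beyond the start of Lmbr1, peak 12 (29389423 to 29389666) was the second strongest of the window. It lay 11145 bp from Lmbr1, between genes, with a pooled signal of 197.9 and rank 1995. Its relative signal was 2.41 in replicate 1 and 2.50 in replicate 2, or 2.45 ± 0.0608 (SD, n = 2), so the libraries were closer to each other here than at peak 3, the third strongest. In mm9 the peak at this distance (29715418 to 29716609) held a motif on the plus strand, opposite to the best motif of each of the 4 peaks inside Lmbr1. Its midpoint fell in an exon of 4632411P08Rik.

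Nom1, which encodes a nucleolar protein, and Mnx1, a homeobox gene of motor neurons and the pancreas, had no conservative peak inside the gene or within 10 kb, and Rnf32 likewise had none. Peak 13 (29413050 to 29413365) was nearest to both Nom1 and Mnx1, 21451 bp and 60615 bp away. Its relative signal was 0.860 in replicate 1 and 0.672 in replicate 2, or 0.766 ± 0.133. In mm9 the peak at its distance from Shh held a plus-strand motif of 15.6 bits. For Rnf32 the nearest summit was that of peak 6, 47330 bp away inside Lmbr1.

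The optimal list of the authors differed from the conservative one at 2 places in the window, though it also held 13 peaks there. It lacked peak 6, and it held a peak (29479312 to 29479627) whose summit lay 1000 bp beyond the end of Mnx1 at which transcription starts, 66262 bp from any conservative peak. The peak beside Mnx1 had a pooled signal of 20.3 and a relative signal of 0.383 in replicate 1, and replicate 2 had no entry within 100 bp. Of the 13 conservative peaks, 12 were thus in the optimal list, against 93.2% of the whole conservative set.

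**Figure D3:**
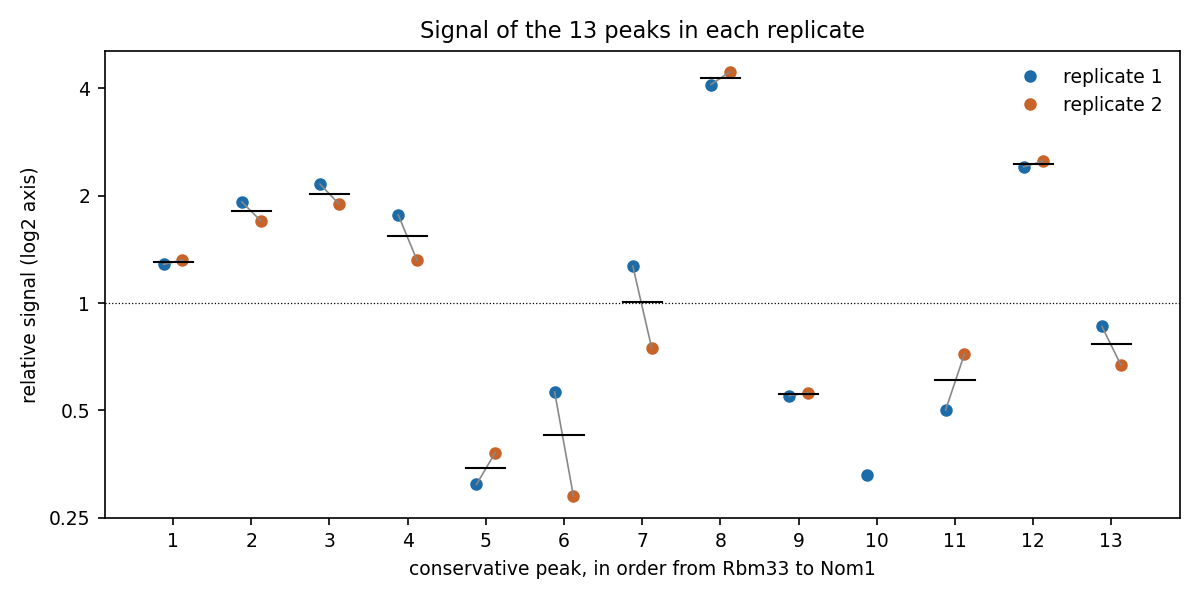
Relative signal (log2 axis; 1 is the median conservative peak, dotted) of the 13 conservative peaks in order along the chromosome, with a dot for replicate 1 and for replicate 2 and a black line at their mean. Peak 8 stands highest in both, peaks 6 and 7 have the widest vertical gap, and peak 10 has a dot for replicate 1 only.

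Across the window the replicates differed about as much as over the whole set. Of the 13 peaks, 12 were matched within 100 bp in both lists, against 95.5% of the 43344 conservative peaks of the autosomes and X. Of the 12, 6 were higher in replicate 1 and 6 in replicate 2. The log2 ratio of replicate 1 over replicate 2 had an SD of 0.42 among them, against 0.44 among all matched peaks. Peaks 6 and 7 were higher in replicate 1 by more than 1.5-fold, as were 8.33% of all matched peaks. None of the 12 was higher in replicate 2 by more than 1.5-fold, against 9.07% of all. Since peaks 6 and 7 are neighbours, these are not separate observations.

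Read along the chromosome, the strands of the best motif per peak changed at Shh and again beyond Lmbr1. In order, they were minus and minus in Rbm33, plus on the far side of Shh, minus at the start of Shh, minus in all 4 peaks inside Lmbr1, and plus in both peaks beyond it. The plus-strand motif on the far side of Shh and the minus-strand motifs inside Lmbr1 point towards each other. Between them lie Shh, the peak at its start and the stretch of 804.2 kb. That stretch is bordered by the peak at the start of Shh, whose better motif, 15.9 bits on the minus strand, points away from Lmbr1. The motifs inside Lmbr1 and those beyond its start point away from each other. The second motifs of the intron 9 peak and of the peak at the start of Shh are on the plus strand, opposite to the best motif of each. That at the start of Shh, 14.5 bits, points towards Lmbr1. In intron 9 the choice of the best motif rests on 20.0 bits for the minus strand against 19.3 bits for the plus strand. By distance from Shh, the plus-strand motif lies at peak 7, the stronger of the 2 mm10 peaks there. The pooled signal was 83.4 for peak 7 and 34.7 for peak 6.

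**Figure D4:**
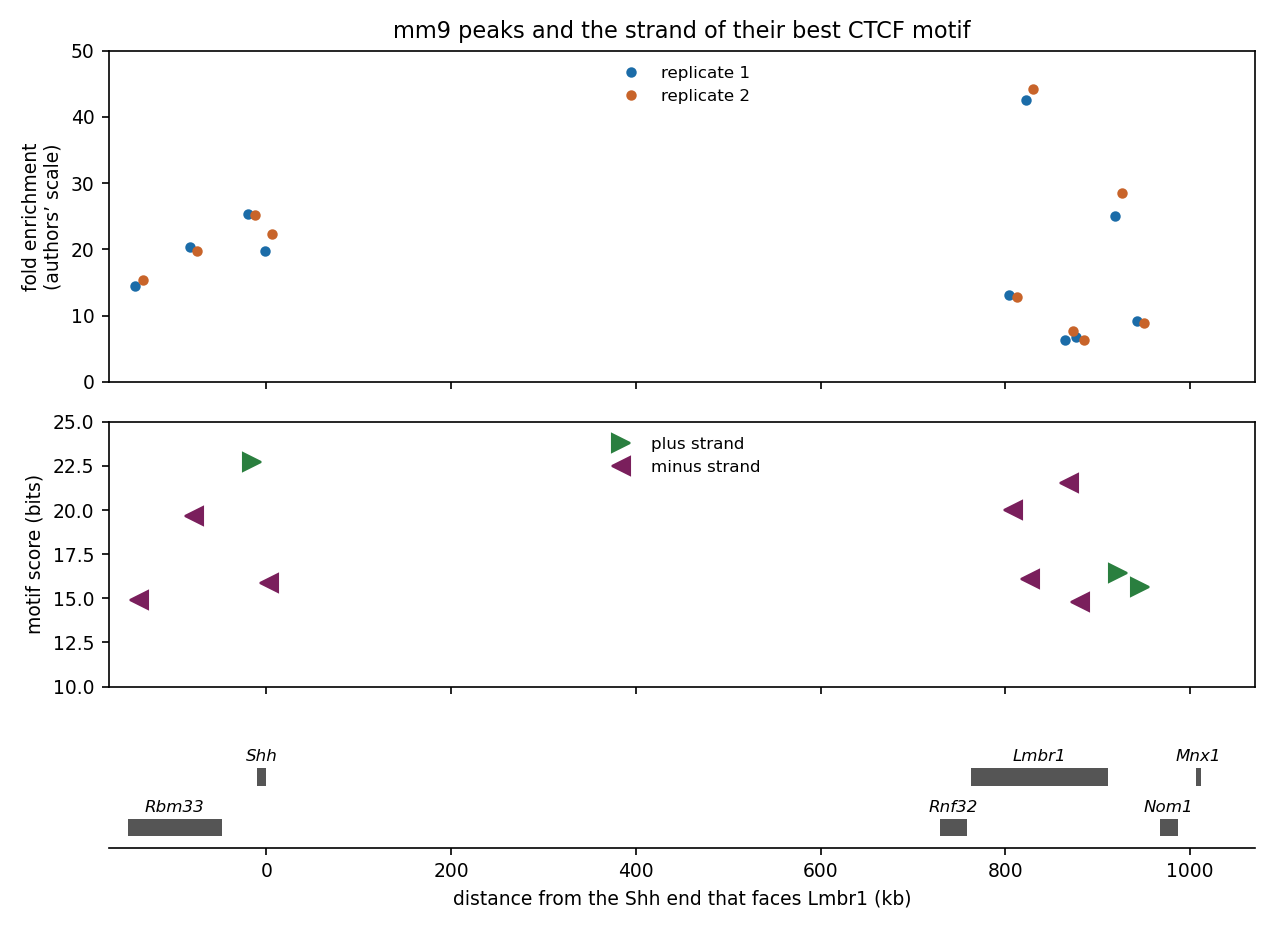
Fold enrichment of the 10 mm9 peaks in replicate 1 and replicate 2 (top, dots moved slightly left and right so that both show), score of the best CTCF motif in each peak (middle, arrowheads pointing right for the plus strand and left for the minus strand) and genes (bottom), against the distance in kb from the end of Shh that faces Lmbr1. The peak of fold enrichment 42.5 and 44.3 in Lmbr1 has a motif of 16.1 bits, and the highest motif score, 22.7 bits, is at the plus-strand site beside Shh.

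How many of the 10 peaks are said to hold the motif depends on where it is sought. With a threshold set so that 1% of flanking windows pass, 13.1 bits, and a search within 50 bp of each midpoint, 4 of the 10 had it, against 53.1% of all pooled mm9 peaks. At the same score anywhere in the peak, a search added after the motifs had been seen, all 10 had it, against 81.4% of all pooled peaks and 10.3% of windows of the same length beside peaks. With the threshold raised to 21.3 bits, which 1% of those longer windows pass, 2 of the 10 had it, against 21.7% of all. All 10 peaks overlapped a peak in each replicate's mm9 list. The median fold enrichment of the 10 was 15.6, against 11.96 for the whole pooled list.

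Genes of the Hedgehog pathway differed in the number of CTCF peaks around them, with the same median as all protein-coding genes. In this pathway the ligands Shh, Ihh and Dhh bind the receptor Ptch1, which releases Smo and so changes the state of the Gli transcription factors. Within each gene and 50 kb either side, the 18 genes of the list held 1 to 11 conservative peaks, with a median of 4, the same as over all 21627 protein-coding genes. Over all those coding genes the count ran from 0 to 81, and 3179 had none. The ranges are not comparable, since extremes widen with the number of genes. Shh had 2 peaks, peaks 3 and 4, Ihh had 8 and Dhh had 6. The most were found at Hhat, the acyltransferase that modifies the ligands, and at Sufu, an inhibitor of the Gli factors, with 11 each. The fewest, 1 each, were found at Ptch1, at Gas1, a coreceptor, and at Hhip, which binds the ligands. These counts were not corrected for gene length.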

How the data were processed

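CTCF ChIP-seq of 2 libraries of mouse E14TG2a.4 cells was analysed from deposited peak lists. Per the deposited descriptions, the mm10 lists hold peaks together with background, as IDR needs, per replicate and pooled, with a signal and a −log10 q value per peak. The authors' conservative and optimal sets carry those values and an integer score. The deposited mm9 lists are broad peaks with a fold enrichment, a ratio on the authors' scale, and a −log10 p. The aligner, the peak caller and the IDR threshold were not given in the sources used here.

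Gene positions on mm10 came from RefSeq (GRCm38.p6), in which all 5 genes matched. Introns, strands and sequence came from GENCODE vM1 and NCBIM37, the mm9 build. No coordinates were converted: the builds are set side by side only by distance from Shh. A 19 bp motif was refined by expectation maximisation on both strands, 100 bp either side of the midpoint, and the score threshold came from flanking windows 500 to 5000 bp from the peaks. The 18 bit limit was a choice of this work. The motif search and the matching of summits were tested on simulated data. Python 3.11.15, NumPy 2.4.6 and pandas 2.3.3 were used.

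The members, gene list and comparison stretches were chosen with earlier results of these data known. Named by rule were the strongest 3 peaks, those beside each gene, and every peak between Shh and Lmbr1 or inside Lmbr1. Alternatives covered the peak set, signal, match distance, scaling, window bounds, motif threshold and search window, and leaving out each replicate.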

Additional observations from a re-analysis of the deposited data

How the results depend on the processing

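The optimal set held 13 peaks in the window, 2 between Shh and Rnf32 and 5 inside Lmbr1, and the strongest entries of either replicate alone gave 12 to 14, 2 and 4 to 6. With peaks of at least the set's median signal, 7 remained in the window, 1 of them between Shh and Rnf32 and 2 inside Lmbr1, and the longest interval was 805.6 kb, since peaks 5 and 6 fall out by construction. The window's median signal over that of the set was 1.08, against 1.11 in the optimal set, 1.18 with the stronger peaks and 1.08 to 1.12 with a replicate left out. The median relative signal, 1.16, was 1.33 with matches within 50 bp, which leave 10 of 12 matched peaks. The motif count of 4 was 0 at the score reached by 0.1% of flanking windows, 2 in the whole peak at its own threshold, 10 in the whole peak at the midpoint's score, and 2 to 3 with a replicate left out. Of the strongest peak, the relative signal was 3.99 to 4.48. No paired analysis was possible because the libraries form a single group.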

Other observations

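The close pair of peaks 9 and 10 is of a kind found across the genome. Summits 150 to 250 bp apart made up 676 of the 43324 neighbour distances, or 1.56%, while 0 were closer than 150 bp and 25 lay 250 to 350 bp apart. The pair lies at a distance that is over-represented in the list, and the cause was not tested.

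The weaker peaks of the window shared a single width. Of the 13 peaks, 6 were 316 bp wide, with signals of 11.9 to 63.2, as were 52.6% of all conservative peaks. The other 7 were narrower, with signals of 83.4 and above. Among these 7, the width was least, 101 bp, at the lowest signal and greatest, 285 bp, at 343.9. The order was not strict, since the peak of signal 127.0 was 221 bp wide and that of 147.0 was 192 bp wide. In the whole set the median signal was 42.8 at a width of 316 bp and 127.6 at other widths.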
